A study of Rattus norvegicus with 16 samples.

Results

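A set of 8 genes of cardiac glucose use was followed in rat hearts after streptozotocin. It holds the glucose transporters Slc2a1 (ENSRNOG00000007284) and Slc2a4 (ENSRNOG00000017226) and the hexokinases Hk1 (ENSRNOG00000000593) and Hk2 (ENSRNOG00000006116). From the later steps it holds Gapdh (ENSRNOG00000018630), Pkm (ENSRNOG00000011329) and the lactate dehydrogenases Ldha (ENSRNOG00000013009) and Ldhb (ENSRNOG00000013000). They were found by these Ensembl identifiers, and 8 of 8 were present among the 23918 genes of the deposited tables. The tables give no symbols, so the 8 names come from the rule that defined the set. RNA of whole hearts drained of blood was sequenced from adult male Wistar rats of 240 to 260 g, 1 library per rat. Control rats (n = 4) were given no agent (dose 0 mg/kg), D55 rats (n = 6) 55 mg/kg and D100 rats (n = 6) 100 mg/kg of streptozotocin, once, into a tail vein. The treated rats had blood glucose above 13 mmol/L after 24 hours, and all animals were followed for 4 days. The title of the study places the severity of diabetes beside cardiac gene expression, so D55 and D100 were each compared with control and with each other.

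Streptozotocin kills pancreatic beta cells and so lowers the supply of insulin. Glucose enters heart muscle through GLUT1, the product of Slc2a1, which supplies basal uptake, and GLUT4, the product of Slc2a4, which insulin moves to the cell surface. Hexokinases then phosphorylate glucose, which traps it in the cell, and HK2 is the form known to respond to insulin in muscle, while HK1 is expressed in most tissues. GAPDH and pyruvate kinase catalyse later steps on the way to pyruvate. Lactate dehydrogenase is a tetramer of LDHA and LDHB subunits that interconverts pyruvate and lactate, with LDHB the typical subunit of heart. A healthy heart draws most of its energy from fatty acids, and glucose use is reduced in the diabetic heart.

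Promoter sequences of 7 of the 8 genes, all but Slc2a4, were taken from RefSeq on the GRCr8 assembly. Below are the 250 bases before the annotated start of Hk2 and Ldha, both lower in D100 than in control, of Hk1, the paralog of Hk2, which has 2 annotated starts and a log2 change of the opposite sign, and of Gapdh, whose level differed widely between libraries of a group. Sequences run 5′ to 3′ on the strand of the gene, and capitals mark matches on either strand to the E-box CACGTG, its shorter part ACGTG, the GC box GGGCGG and the TATA box TATAAA. Every E-box match also counts as a match of ACGTG.
Hk2, chr4:116841276-116841525, minus strand: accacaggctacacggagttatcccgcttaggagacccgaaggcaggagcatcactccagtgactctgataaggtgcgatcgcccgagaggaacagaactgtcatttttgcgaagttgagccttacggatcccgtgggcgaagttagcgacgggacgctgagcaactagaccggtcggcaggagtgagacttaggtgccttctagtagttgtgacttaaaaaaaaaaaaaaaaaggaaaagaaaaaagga
Ldha, chr1:106507842-106508091, plus strand: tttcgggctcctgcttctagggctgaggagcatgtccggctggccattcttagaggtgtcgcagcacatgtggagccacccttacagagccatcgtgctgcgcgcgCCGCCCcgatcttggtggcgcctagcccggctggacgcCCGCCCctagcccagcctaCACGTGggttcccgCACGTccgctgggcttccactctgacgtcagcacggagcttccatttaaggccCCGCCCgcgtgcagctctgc
Hk1, first start, chr20:30874815-30875064, minus strand: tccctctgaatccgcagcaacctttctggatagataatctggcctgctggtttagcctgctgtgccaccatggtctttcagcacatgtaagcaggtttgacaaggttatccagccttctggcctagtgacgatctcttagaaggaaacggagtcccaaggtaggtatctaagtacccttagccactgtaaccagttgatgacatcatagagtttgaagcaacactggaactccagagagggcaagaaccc
Hk1, second start, chr20:30842073-30842322, minus strand: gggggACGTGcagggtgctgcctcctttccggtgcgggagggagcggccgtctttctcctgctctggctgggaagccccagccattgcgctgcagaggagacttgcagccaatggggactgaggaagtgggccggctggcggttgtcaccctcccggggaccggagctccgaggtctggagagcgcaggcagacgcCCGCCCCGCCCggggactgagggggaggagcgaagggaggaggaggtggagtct
Gapdh, chr4:159652468-159652717, minus strand: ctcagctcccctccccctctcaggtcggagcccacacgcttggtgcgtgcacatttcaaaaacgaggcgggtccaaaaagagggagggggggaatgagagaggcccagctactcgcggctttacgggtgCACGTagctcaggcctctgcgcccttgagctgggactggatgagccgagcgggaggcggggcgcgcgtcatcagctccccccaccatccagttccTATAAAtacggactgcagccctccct

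The Ldha window held 1 E-box, 87 to 82 bases before the start, and 3 GC boxes. In the Hk2 window 0 matches to these letters were found, and in the window of the first Hk1 start also 0. Gapdh held a TATA box 26 to 21 bases before its start. Among 33469 RefSeq promoter windows of the same length, 5.59% held the E-box, 16.6% ACGTG, 30.5% the GC box and 12.9% the TATA box. A match describes the sequence alone.

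Libraries held 4.685 to 48.4 M estimated counts, with the shallowest in D100 F. Levels are given as CPM, the counts of a gene relative to the total of its library, with totals scaled by TMM, a factor per library set so that most genes do not change; they compare a gene between libraries, not genes with each other. The 10 most abundant genes of the series, none of them among the 8, took 30.1% to 69.0% of the counts of a library (its 10-gene share), least in D55 B and E (30.1% and 30.4%) and most in D100 B. Results that rest on D55 B and E are therefore given with and without these libraries. Estimates that are not whole show reads shared with similar sequences. Gapdh, Pkm and Ldha had 0 whole estimates (within 0.01) in the 10, 14 and 6 libraries that could be judged, while Hk1 had 2 of 16 and Hk2 7 of 16, so these levels are measured less surely than those of Slc2a1 and Slc2a4, whole in 16 of 16, and Ldhb, whole in 4 of 4. The tables pair no identifiers with symbols, so markers of heart muscle or of other cell types were not used here, and fewer cells of a type cannot be told apart from less RNA per cell.

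Slc2a4, Hk2 and Ldha were lower in D100 hearts than in control hearts, by 4.57-fold, 3.16-fold and 1.84-fold. These were the 3 of the 8 genes that passed the edgeR quasi-likelihood test at an adjusted p of 0.05 (Benjamini-Hochberg over 14175 genes), against 4.38% of all tested genes in either direction and 2.46% lower. The direction was negative for 7 of the 8, against 52.0% of all tested genes. The median log2 fold change was -0.9996 for the 8 genes and -0.03 for all tested genes. D100 and control values did not overlap for 4 of the 8, Slc2a1, Slc2a4, Hk2 and Ldha, against 7.57% of all genes. Limma-voom, run here with a weight for the estimated quality of each library, called 8 of the 8 for D100 against control, against 67.7% of all genes. After the lower dose 0 of the 8 passed, against 0.0635% of all genes. DESeq2 called 0 of the 8 at this dose, against 0.621% of all genes, and limma-voom 2, Slc2a4 and Hk2, against 3.68%. D55 and control values did not overlap for Hk2 and Ldha, both lower in D55, against 2.55% of all genes.

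**Figure D1:**
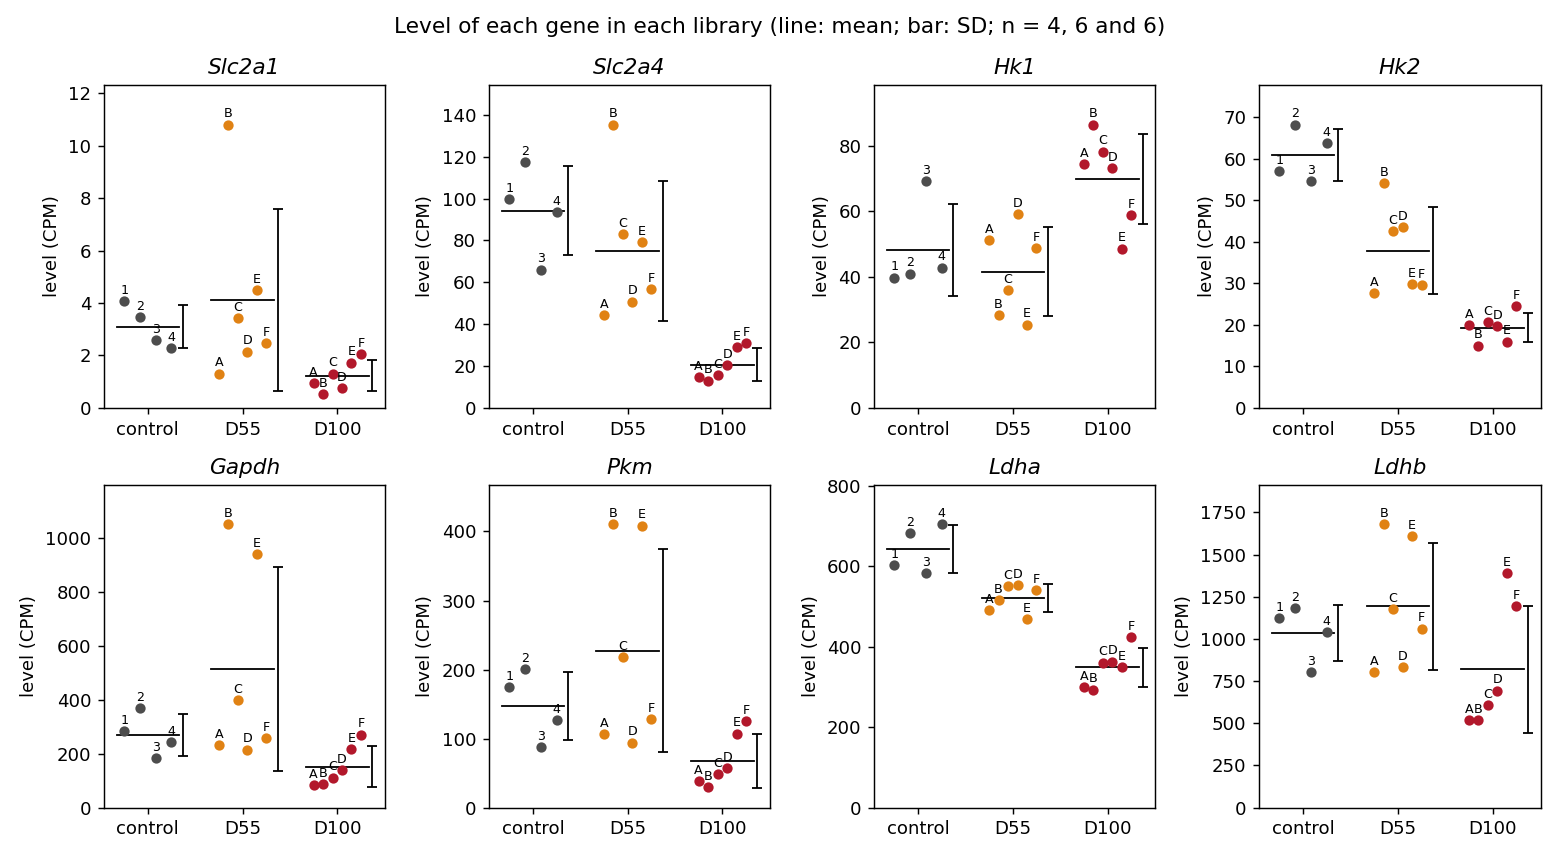
Level in CPM (vertical axes, from 0) of each of the 8 genes in the 4 control, 6 D55 and 6 D100 libraries; points are libraries with their replicate name, lines are group means and bars are SD. Every D100 value of Slc2a4, Hk2 and Ldha lies below every control and every D55 value, while Gapdh, Pkm and Ldhb are highest in D55 B and E.

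The insulin-responsive transporter Slc2a4 stood at 99.7, 117, 66.1 and 93.6 CPM in controls 1 to 4. In D55 the values ran from 44.3 (A) through a median of 67.9 to 135 (B), and in D100 from 13.0 (B) through a median of 18.2 to 31.0 CPM (F). All D100 hearts were below all others, whereas D55 and control hearts overlapped. Group means were 94.2 CPM ± 21.3 (SD, n = 4) in control, 74.9 ± 33.4 (SD, n = 6) in D55 hearts and 20.7 ± 7.68 (SD, n = 6) in D100 hearts. D100 hearts differed from control hearts by -2.19 on the log2 scale (SE 0.31, adjusted p = 0.00104 in edgeR), lower than that of all but 0.748% of tested genes. Against D55 it was -1.86 (SE 0.29, edgeR adjusted p = 0.00545), and that of D55 over control, -0.33 (SE 0.31), did not pass (edgeR adjusted p = 0.686). The D55 change was -0.68 without D55 B and E (unadjusted p = 0.0283, edgeR adjusted p = 0.9999), -0.71 with the 10-gene share as a covariate (SE 0.15, adjusted p = 0.0508) and -0.88 in limma-voom, where it passed (adjusted p = 0.00613). In order of level D100 lay below both other groups, and the D55 change over control passed in 1 of 27 alternatives, limma-voom.

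Slc2a1, the basal transporter, was scarce. It was measured at 4.06, 3.45, 2.57 and 2.29 CPM in controls 1 to 4, and its lowest rounded count was 7, in D100 B. D55 libraries ran from 1.31 (A) through a median of 2.95 to 10.8 CPM (B), and D100 libraries from 0.541 (B) through a median of 1.13 to 2.06 CPM (F). D100 values all lay below the control values, but overlapped those of D55. The D55 change over control was 0.42 (SE 0.49, edgeR adjusted p = 0.747), and -0.41 without D55 B and E. With a log2 fold change of -1.38 (SE 0.50), D100 against control did not pass (edgeR adjusted p = 0.129). Leaving out D55 B, a library of neither group, brought the same change to -1.36 with an adjusted p of 0.0495. A fit of control and D100 alone gave -1.38 and passed (edgeR adjusted p = 0.0436). Against D55 the log2 change of -1.79 (SE 0.47) passed (edgeR adjusted p = 0.0174), but without D55 B it was -1.21 and missed the threshold (adjusted p = 0.0506). Without D55 B and E it was -0.97 (edgeR adjusted p = 0.161).

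In TMM-scaled CPM, Hk2, the insulin-responsive hexokinase, held separate ranges in the 3 groups. Controls 1 to 4 stood at 57.1, 68.2, 54.7 and 63.8 CPM. The D55 libraries held 27.7 (A) to 54.1 CPM (B) with a median of 36.2, all below the lowest control. In D100 the range was 15.0 (B) to 24.6 CPM (F) with a median of 19.8, all below the lowest D55 value. Means were 60.9 CPM ± 6.20 (SD, n = 4), 37.9 ± 10.5 (SD, n = 6) and 19.3 ± 3.46 (SD, n = 6) in control, D55 and D100. On the log2 scale D100 differed from control by -1.66 (SE 0.19, adjusted p = 0.000223 in edgeR) and from D55 by -0.97 (SE 0.18, adjusted p = 0.00968). The D55 change of -0.69 (SE 0.19) had an unadjusted p of 0.00221 and did not pass after adjustment over all genes (0.402 in edgeR). Without scaling factors the D55 change was -0.50 (unadjusted p = 0.107, edgeR adjusted p = 0.613).

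Hk1, the widely expressed hexokinase, had its highest mean level in D100. Controls 1 to 4 held 39.8, 41.0, 69.2 and 42.9 CPM, with control 3 apart from the others. D55 libraries ran from 25.4 (E) through a median of 42.4 to 59.2 CPM (D), and D100 libraries from 48.6 (E) through a median of 73.8 to 86.5 CPM (B). Control 3 lay inside the D100 range, so the groups overlapped. The log2 difference of D100 from control, 0.54 (SE 0.25), did not pass (edgeR adjusted p = 0.211), nor did that of D55, -0.22 (SE 0.24, edgeR adjusted p = 0.737). Between the doses Hk1 was the 1 gene of the set that passed upward, by 0.75 on the log2 scale (SE 0.22, edgeR adjusted p = 0.0226), a call lost without any 1 of D55 B, D55 E, D100 A, D100 B or D100 C (log2 change 0.65 to 0.74, adjusted p = 0.0502 to 0.0648). Leaving out both D55 B and E gave 0.52 (edgeR adjusted p = 0.167). Without scaling factors the same change between the doses was 0.16 (adjusted p = 0.270), and that against control was 0.092.

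Ldha, the muscle-type lactate dehydrogenase subunit, showed the smallest spread of the 8. Controls 1 to 4 were at 603, 682, 583 and 705 CPM. D55 values lay between 468 (E) and 554 (D) with a median of 529, all under the lowest control in TMM-scaled CPM. D100 values lay between 294 (B) and 425 CPM (F) with a median of 355, all under the lowest D55 value. The SD was 9.22%, 6.71% and 13.8% of the mean in control, D55 and D100. From a control mean of 643 CPM ± 59.3 (SD, n = 4) and a D55 mean of 520 ± 34.9 (SD, n = 6), the level was 349 ± 48.2 (SD, n = 6) in D100. The log2 difference was -0.88 from control (SE 0.13, adjusted p = 0.00106 in edgeR) and -0.58 from D55 (SE 0.11, adjusted p = 0.0117). The change in D55, -0.31 (SE 0.13), did not pass (unadjusted p = 0.0277, edgeR adjusted p = 0.554). Without scaling factors it was -0.15 (edgeR adjusted p = 0.817).

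Ldhb, the heart-type subunit, had a different pattern. Controls 1 to 4 held 1122, 1183, 804 and 1039 CPM. In D55 it ran from 802 (A) through a median of 1118 to 1679 CPM (B), and in D100 from 519 (B) through a median of 651 to 1388 CPM (E). D100 E and F exceeded every control and the other 4 D100 libraries lay below every control. No comparison passed: the log2 fold change was 0.20 (SE 0.30, edgeR adjusted p = 0.804) for D55 (-0.099 without D55 B and E), -0.34 (SE 0.30, edgeR adjusted p = 0.486) for D100 and -0.54 (SE 0.27, edgeR adjusted p = 0.113) for D100 against D55. Without D100 E the last of these was -0.76 and passed (adjusted p = 0.0267). The same change between the doses was -0.24 without D55 B and E and did not pass (edgeR adjusted p = 0.580).

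Gapdh, often used as a reference transcript, ranged 12.5-fold over the 16 libraries, against a median of 3.57-fold over the 12459 tested genes with counts in every library. Controls held 283, 369, 182 and 244 CPM. D55 B and E stood at 1051 and 939 CPM while the other 4 D55 libraries lay between 215 and 400 CPM. D100 libraries ran from 83.9 (A) through a median of 126 to 271 CPM (F), overlapping both other groups. The D55 change over control was 0.94 (SE 0.48, edgeR adjusted p = 0.554), and 0.035 without D55 B and E or 0.11 with the 10-gene share as a covariate. That of D100 was -0.83 (SE 0.46, adjusted p = 0.285 in edgeR). Between the doses the log2 change of -1.77 (SE 0.43) passed (edgeR adjusted p = 0.0158), but without D55 B and E it was -0.87 (adjusted p = 0.159).

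Pkm, the muscle and heart pyruvate kinase, had its lowest mean level in D100. Its mean was 147 CPM ± 49.8 (SD, n = 4) in control and 228 ± 147 (SD, n = 6) in D55, or 137 ± 56.1 (SD, n = 4) in D55 without B and E. Controls 1 to 4 held 174, 200.1, 87.9 and 127 CPM, D55 libraries 94.1 (D) to 410.3 (B) with a median of 173, and D100 libraries 30.0 (B) to 126 CPM (F) with a median of 53.4. The groups overlapped in all 3 comparisons. Its log2 fold change was 0.63 (SE 0.48, edgeR adjusted p = 0.632) in D55, or -0.11 without D55 B and E, and -1.12 (SE 0.47, edgeR adjusted p = 0.176) in D100. Between the doses it was -1.74 (SE 0.44, edgeR adjusted p = 0.0160), and -1.01 without D55 B and E (adjusted p = 0.161).

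Between the doses, 7 of the 8 genes passed in edgeR, 6 lower and 1 higher in D100. This was a comparison in which 35.6% of all tested genes passed, 21.8% lower and 13.7% higher. D100 and D55 values did not overlap for 3 of the 8, Slc2a4, Hk2 and Ldha, against 4.2% of all genes. Without D55 B and E, a choice made after seeing the data, the same 3 genes passed, against 0.888% of all genes. Their log2 changes were then -1.51 for Slc2a4 (adjusted p = 0.0183), -0.90 for Hk2 (adjusted p = 0.0232) and -0.62 for Ldha (adjusted p = 0.0309). Against control, leaving out these libraries gave 4 of 8 calls in D100, with Slc2a1 added (-1.38, adjusted p = 0.0258), against 10.8% of all genes. Leaving out D100 F as well, the shallowest library, gave 6 of 8 calls in D100 against control, against 19.8% of all genes, and 3 between the doses, against 2.48%.

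**Figure D2:**
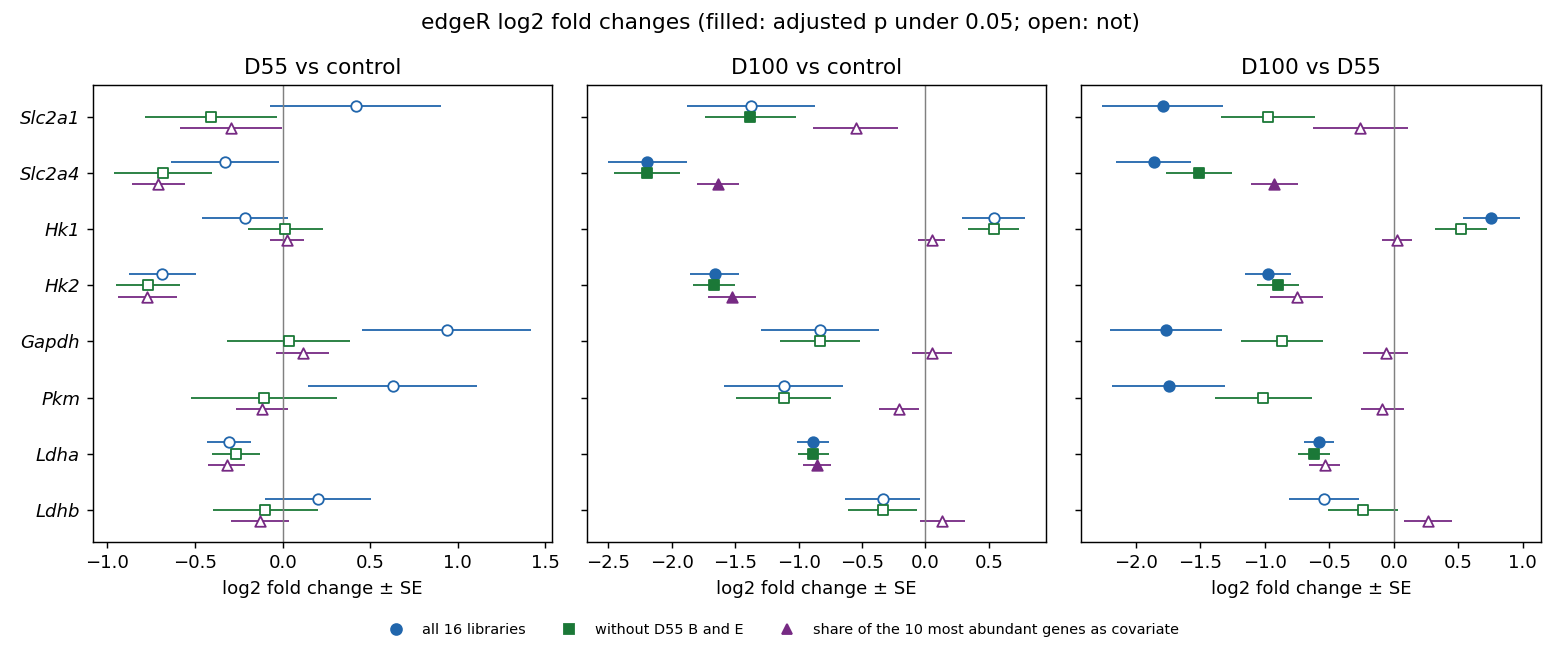
Log2 fold change (horizontal axes) with its SE for each gene in the 3 comparisons, from edgeR with all 16 libraries, without D55 B and E, or with the 10-gene share of each library as a covariate; filled symbols have an adjusted p under 0.05. Slc2a4, Hk2 and Ldha keep filled symbols for D100 against control in all 3 fits, while Gapdh and Ldhb move to 0.052 and 0.13 with the covariate.

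The 8 genes differed in how their levels lay beside the 10-gene share, the part of a library's counts held by the 10 most abundant genes. That share averaged 49.7% ± 7.60 (SD, n = 4) in the control libraries. It averaged 43.6% ± 11.1 (SD, n = 6) after 55 mg/kg and 60.8% ± 5.90 (SD, n = 6) after 100 mg/kg. In all 3 groups the library with the lowest share (control 2, D55 B, D100 F) had the highest Pkm and Gapdh of its group, and the library with the highest share (control 3, D55 D, D100 B) had the lowest Pkm and the highest Hk1. Hk2 was likewise highest in control 2, D55 B and D100 F and lowest in control 3 and D100 B, but D55 E, with a share close to that of D55 B, held 29.8 CPM against 54.1 CPM. Ldha was lowest in control 3 and D100 B and highest in D100 F, while in D55 it was lowest in E (468 CPM) and highest in D (554 CPM). With this share as a covariate, also chosen after seeing the data, the D100 changes over control were -1.63 for Slc2a4 (edgeR adjusted p = 1.45e-05), -1.52 for Hk2 (adjusted p = 8.97e-05) and -0.86 for Ldha (adjusted p = 0.000141), in a fit that called 9.93% of all genes. The same fit gave 0.052 for Gapdh, -0.21 for Pkm, 0.13 for Ldhb, 0.049 for Hk1 and -0.55 for Slc2a1, with adjusted p-values of 0.329 to 0.882. Between the doses only Slc2a4 of the 8 passed in that fit (-0.93, adjusted p = 0.0331), against 0.289% of all genes. The share comes from the same counts and was highest on average in D100, so this fit cannot fully tell it apart from dose.

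**Figure D3:**
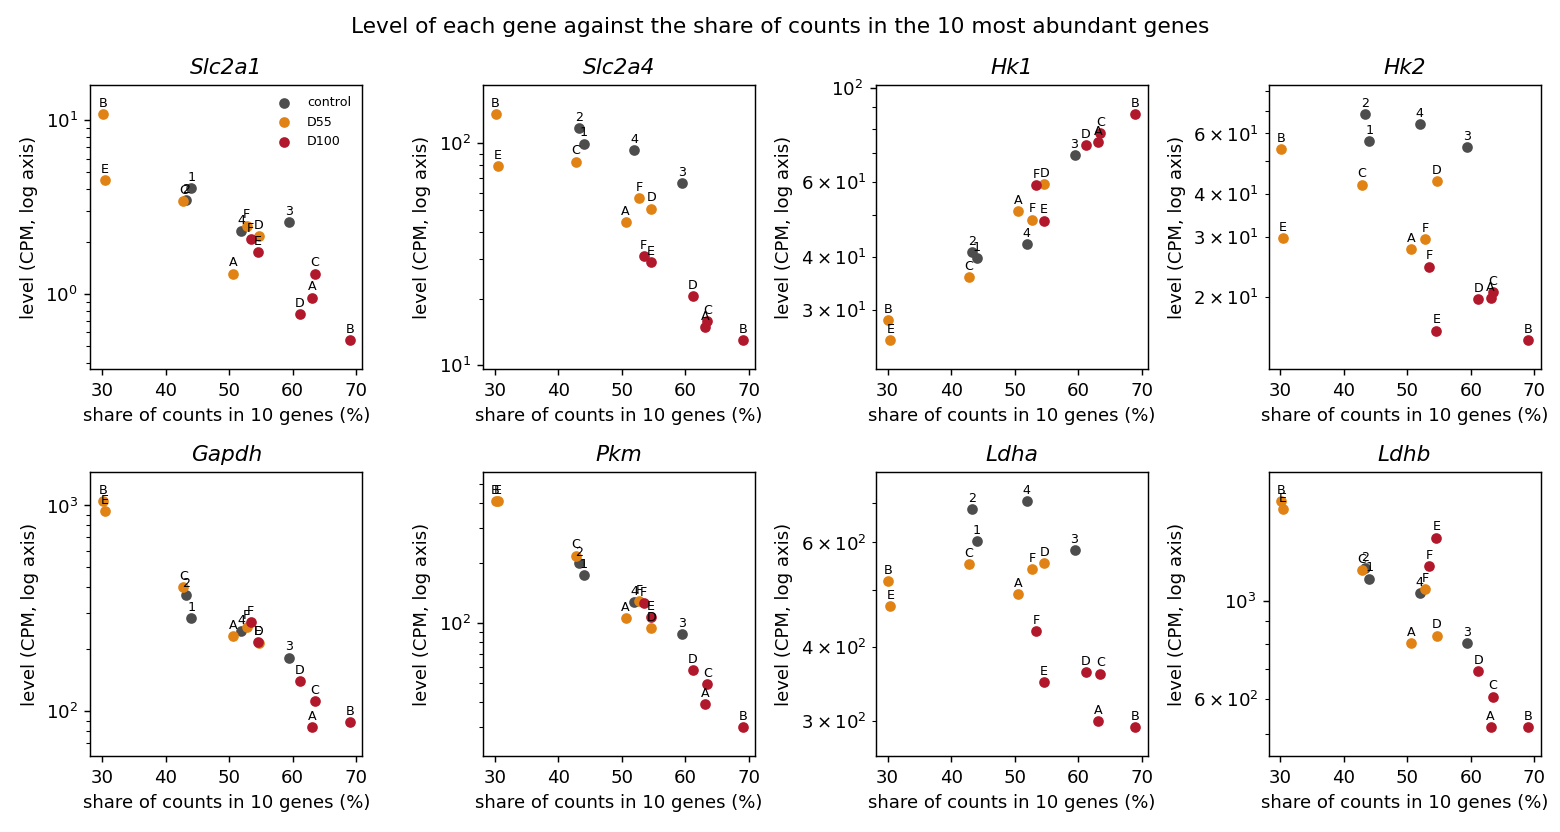
Level of each gene in CPM (vertical log axes) against the 10-gene share of its library (horizontal axes, percent); points are the 16 libraries with their replicate name, coloured by group. Gapdh and Pkm of the 3 groups lie along one falling band and Hk1 along a rising one. D100 E and F, at 54.6% and 53.4%, hold less Ldha, Hk2 and Slc2a4 than libraries of the other groups at a like share, such as D55 D at 54.7%. D100 A to D, at 61.2% to 69.0%, lie above every control and D55 share (at most 59.4%), so they have no such counterpart.

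Ratios of paralogs within a library do not depend on its scaling factor, and are described without a test. The log2 ratio of Hk1 to Hk2 was -0.52, -0.74, 0.34 and -0.57 in controls 1 to 4. It ran from -0.93 (B) to 0.89 (A) in D55 and from 1.26 (F) to 2.53 (B) in D100, so all D100 libraries lay above all others. The mean was -0.37 ± 0.48 (SD, n = 4) in control, 0.11 ± 0.70 (SD, n = 6) in D55 hearts and 1.85 ± 0.42 (SD, n = 6) in D100 hearts, a difference of 2.22 between D100 and control. This ratio can still follow the 10-gene share. It was lowest in the library with the lowest share of each group (control 2, D55 B, D100 F). In control and D100, but not in D55, it was highest in the library with the highest share. With the share as a covariate, the D100 change over control was 0.049 for Hk1 and -1.52 for Hk2. The log2 ratio of Slc2a1 to Slc2a4 averaged -4.93 ± 0.35 (SD, n = 4), -4.42 ± 0.49 (SD, n = 6) and -4.15 ± 0.44 (SD, n = 6), with overlap between all groups. That of Ldha to Ldhb averaged -0.68 ± 0.20 (SD, n = 4) in control, -1.14 ± 0.50 (SD, n = 6) in D55 hearts and -1.13 ± 0.50 (SD, n = 6) in D100 hearts, also with overlap. Its lowest values were in D55 B and E (-1.70 and -1.78) and D100 E (-1.99).

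**Figure D4:**
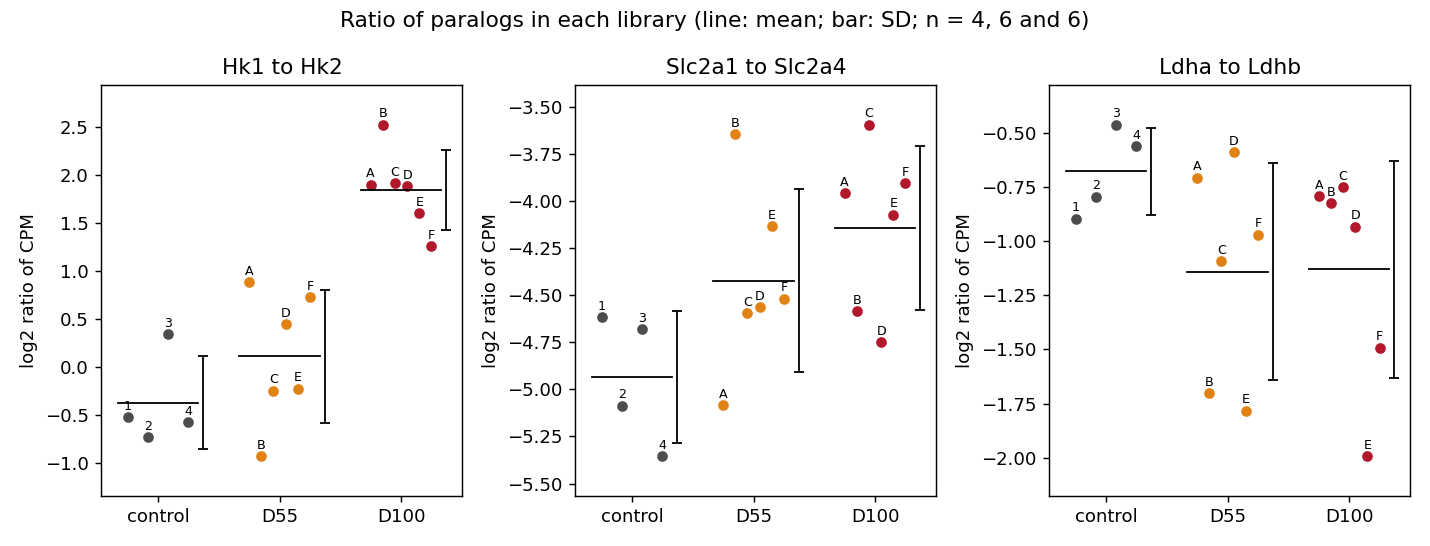
Log2 ratio of the CPM of 2 paralogs (vertical axes) in each library by group; points carry the replicate name, lines are means and bars SD. Ratios of Hk1 to Hk2 in D100 (1.26 to 2.53) lie above all control and D55 values (at most 0.89), while the other ratios overlap between groups.

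Among tested genes outside the set, the one whose log2 level over the 16 libraries was most like that of Slc2a4 was ENSRNOG00000021678.5, with a Pearson correlation of 0.98 given as a description. It held 47.1 CPM ± 5.10 (SD, n = 4) in control, 41.7 ± 7.44 (SD, n = 6) in D55 hearts and 28.4 ± 4.18 (SD, n = 6) in D100 hearts. The gene most like Hk2 was ENSRNOG00000001736.5 (correlation 0.95 over the same 16 libraries), with 29.9 CPM ± 3.07 (SD, n = 4), 18.9 ± 6.32 (SD, n = 6) and 5.87 ± 1.61 (SD, n = 6). Libraries of 3 groups and of unequal composition enter these correlations.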

How the data were processed

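Each of the 16 libraries was made from 400 ng of total heart RNA of 1 rat with a stranded kit selecting polyadenylated RNA, per the labels' protocols. The authors deposited estimated counts for each gene and library, made with kallisto 0.43.1 on Rnor_6.0, per the submitters' processing notes; no source used here gives the annotation release or strand setting. Estimates were rounded. In R 4.3.3 with edgeR 4.0.16, filterByExpr kept 14175 genes, TMM factors were computed, and a quasi-likelihood model of the 3 groups was fitted to all libraries at once. The same code was run on simulated counts with the same spread for all genes and no outlying libraries. That run does not bear on the shifts between fits given here. P-values were adjusted by Benjamini-Hochberg over all tested genes within a comparison, with a threshold of 0.05. The SE is the log2 fold change over the root of its F statistic. Alternatives were DESeq2 1.42.0, limma-voom with a quality weight per library (limma 3.58.1), other scaling and filters, the compared groups alone, and left-out libraries. The 8 genes, the alternatives and the rule for naming others (all 8, plus the gene most like Slc2a4 and Hk2) were chosen with earlier results of these data known. The lists of other pathway genes and cell markers were fixed by symbol and could not be matched to identifiers. The labels name no batch. Promoter windows of another assembly, GRCr8, were matched by symbol.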

Additional observations from a re-analysis of the deposited data

Results flagged for a closer look

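Among 33 groups of values (the 8 genes and 3 ratios in each group), 2 had a library far from the others of its group; chance flags about 1 in 20. Slc2a1 stood at 10.8 CPM in D55 B, against 1.31 to 4.51 CPM in the other D55 libraries. Hk1 stood at 69.2 CPM in control 3, against 39.8 to 42.9 CPM in the other controls; without control 3 the log2 change of Hk1 in D100 over control was 0.76 (edgeR adjusted p = 0.0849).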

How the results depend on the processing

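The D100 calls of Slc2a4, Hk2 and Ldha against control held in 27 of 27 alternatives each, with log2 changes of -2.60 to -1.63, -2.11 to -1.52 and -1.31 to -0.82. Leaving out 1 library at a time called 3 to 4 of the 8 genes in D100 against control, 0 in D55 against control and 5 to 8 between the doses; of all genes these fits called 1.25% (without control 1) to 7.68% (without D100 E), 0 to 0.107%, and 8.37% (without D55 B) to 47.6% (without D55 D). Limma-voom called 2 in D55 and 8 in D100 against control, against 3.68% and 67.7% of all genes. A fit of control and D100 alone called 4 of the 8, against 841 of 13541 genes. Without D55 B, D55 E and D100 F, 6 were called in D100 against control and 3 between the doses, against 19.8% and 2.48% of all genes; leaving out D55 B and E alone called 3 between the doses, and the 10-gene share as covariate 1. With the replicate letter as a block (replicate block) 0 of the 8 passed between the doses (edgeR adjusted p from 0.0530), nor did any other gene. Same-letter libraries came from different rats. Their deviations correlated from -0.50 to 0.63, and 3 of 12 libraries correlated best with their own letter. Libraries of unequal composition enter these correlations, so they cannot settle whether a letter marks a shared batch. The cause of these shifts was not tested.

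None of the D55 changes over control passed in edgeR, and several changed sign. With limma-voom, Slc2a1 was at -0.69, Hk1 at 0.23, Gapdh at -0.14, Pkm at -0.42 and Ldhb at -0.20. Without D55 B and E, Slc2a1 was at -0.41, Hk1 at 0.016, Pkm at -0.11 and Ldhb at -0.10, and without D100 F as well at -0.41, 0.017, -0.11 and -0.10. With the covariate they were -0.29, 0.026, -0.12 and -0.13. With 1 library left out at a time Slc2a1 ranged from -0.16 (without D55 B) to 0.60 and Hk1 from -0.34 to 0.0090 (without control 3). The covariate also turned the D100 change of Gapdh (0.052) and Ldhb (0.13) over control and that of Ldhb over D55 (0.27). Without scaling factors the median of all genes moved from -0.03 to -0.48 in D100 over control, with 90 genes higher and 1082 lower in place of 272 and 349, and to -0.65 over D55 (141 higher, 6875 lower, against 1944 and 3097). The count of all genes called in D100 over D55 was 123 when D55 B and E were left out and 41 in the covariate fit. Depth limits Slc2a1 most, with 7 counts in D100 B.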
